A study of Homo sapiens with 12 samples.

Results

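The collagen genes of Colo320DM cells, a human colorectal cancer cell line, were followed across TET1 knockdown and treatment with 5-aza-2'-deoxycytidine (5-aza-dC). They were taken as all probes that were no controls and whose gene name in the array files was COL, a number, A and a number. This gave 43 genes of the 36337 distinct gene names on the array, on 65 of its 50599 probes. 26 genes had 1 probe and 17 had several. TET1 oxidises 5-methylcytosine in DNA, and 5-aza-dC inhibits the DNA methyltransferases. The arrays held 4 groups of 3 clones each. The control clones carried a pcDNA6.2-GW/EmGFP-miR-neg plasmid and were either mock treated or given 1 µM 5-aza-dC for 72 h. The knockdown clones carried a TET1 knockdown vector and were either mock treated or given the same dose for the same time. The same 6 clones were thus measured once under each condition, each clone was a G418-selected line grown from 1 colony, and the p-values measure the spread between these clones. By the study's text, which numbers its knockdown clones likewise, Colo320DM knockdown clones 1 and 2 were made with the vector miTET1-1 and clone 3 with miTET1-2, and the sample labels name only a TET1 knockdown vector.

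Collagens are secreted or membrane-bound proteins built of 3 chains wound into a triple helix, whose chains repeat a short motif that starts with glycine. Fibrillar collagens form the fibrils of connective tissue, network collagens form the sheets of basement membranes, and FACIT collagens (fibril-associated collagens with interrupted triple helices) coat the fibrils. Fibroblasts are their best known source, while epithelial cells make mainly basement membrane and transmembrane collagens.

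The signal of each probe is given on the log2 scale relative to the 75th percentile of all spots of its array that were no controls, so 0 is that percentile and values of different probes cannot be set against each other. That percentile lay between 360.6 and 541.8 signal units. A probe counted as detected where the scanner software marked it as well above background, which held for 45.74% to 52.88% of all probes per array. The TET1 signal was 4.01, 3.65 and 4.05 in mock control clones 1 to 3 and 3.01, 2.92 and 2.99 in mock knockdown clones. The knockdown clones lay below all controls, but the difference of -0.93 ± 0.19 (SE) did not pass the adjusted test (adjusted p = 0.276). After 5-aza-dC it was 3.48, 3.79 and 3.56 in control clones and 2.39, 3.72 and 2.79 in knockdown clones, where knockdown clone 2 lay within the control range, and the difference was -0.64 (adjusted p = 0.348). The arrays lay on 2 slides. On slide 1 were control clones 1 and 2 after mock treatment, all 3 knockdown clones after mock treatment and knockdown clones 1 and 3 after 5-aza-dC, with the other 5 arrays on slide 2. Control clone 3 and knockdown clones 1 and 3 therefore had both of their arrays on 1 slide, and values within these 3 clones are free of the step between slides. Differences within slide 1 set treated arrays of knockdown clones 1 and 3 against mock arrays of both clone types. Within slide 2 the only mock array was that of control clone 3. Such differences within a slide therefore mix treatment with clone type. Of 27200 probes detected on at least 3 arrays and measured on all, 26.3% had no overlap between the slides.

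Of the 43 collagen genes, 29 were detected on at least 1 array and 14 on none. 12 genes had a probe that was detected on all 12 arrays. Per array, 17 to 26 collagen genes were detected. A full set of 3 detected arrays was reached by 16 genes in mock control clones, 15 in mock knockdown clones, 18 in treated control clones and 21 in treated knockdown clones. Of the 65 probes, 24.62% were detected on all 12 arrays and 38.46% on none, beside 39.15% and 35.78% of all probes. Collagen chains were thus measured in every class, and for many of them the arrays gave only a background signal.

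**Figure D1:**
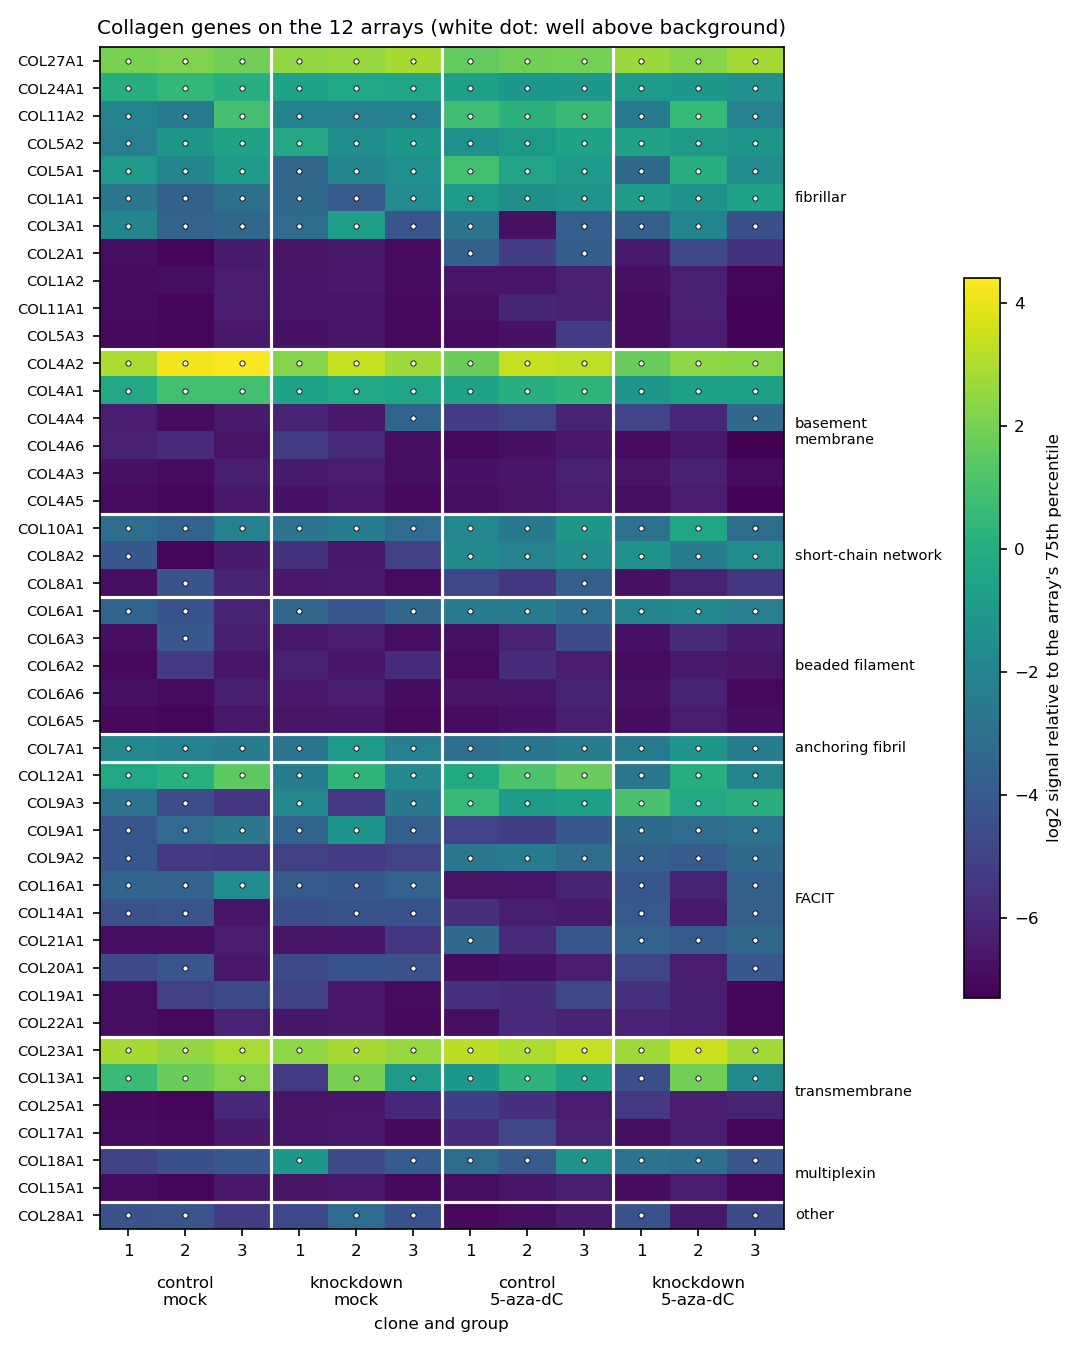
Log2 signal (colour, relative to the 75th percentile of each array) of the probe with the highest mean for each of the 43 collagen genes (rows, by class) on the 12 arrays (columns, by group and clone 1 to 3), with a white dot where the probe was well above background. COL27A1, COL4A2 and COL23A1 lie above 0 on every array, and the 14 undetected genes have no dot.

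Among the 11 fibrillar genes, 8 were detected. These were COL27A1, COL24A1, COL11A2, COL5A2, COL5A1, COL1A1, COL3A1 and COL2A1. COL1A2, which supplies the second kind of chain of type I collagen, was not detected on any array, and neither were COL5A3 and COL11A1. COL1A1, which encodes the main chain of type I collagen, was detected on all 12 arrays, with signals from -3.96 to -0.60. COL3A1 was detected on 11 arrays and COL2A1, the cartilage fibril chain, on 2. Of the 6 basement membrane genes COL4A1 and COL4A2 were detected on every array. These chains assemble with each other in most basement membranes, and their genes lie side by side on chromosome 13. COL4A4 was detected only in knockdown clone 3, at -3.55 after mock treatment and -3.28 after 5-aza-dC, while its other 10 arrays lay between -6.89 and -4.85. COL4A3, COL4A5 and COL4A6 were not detected.

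All 3 short-chain genes were detected, COL10A1 on 12 arrays, COL8A2 on 7 arrays by its brighter probe and COL8A1 on 2. Among the beaded filament genes COL6A1 was detected on 10 arrays and COL6A3 on 1 by each of its probes, whereas COL6A2, COL6A5 and COL6A6 were not detected. Type VI collagen is a microfibril of 3 different chains, so the files showed a signal well above background on most arrays for only 1 of them. COL7A1, the anchoring fibril collagen that fastens epithelium to the tissue below, was detected on all 12 arrays between -3.14 and -1.01. Of the 10 FACIT genes 8 were detected, namely COL12A1, COL9A3, COL9A1, COL9A2, COL16A1, COL14A1, COL21A1 and COL20A1, and COL19A1 and COL22A1 were not. Among the transmembrane genes COL23A1 was detected on 12 arrays and COL13A1 on 11, while COL17A1 and COL25A1 were not detected. COL18A1, the multiplexin whose end piece is endostatin, was detected on 8 arrays and COL15A1 on none. COL28A1 was detected on 6. Other probes of COL5A1, COL9A1, COL9A2, COL23A1 and COL28A1 were not detected on any array, at other positions of the same genes, and a further probe of COL5A1, 1 of COL14A1 and 1 of COL20A1 were detected on 1 array each.

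The study used treated arrays to ask whether TET1 depletion weakens the response to 5-aza-dC, and proposes that it may do so, also in Colo320DM cells. Here treated arrays were first compared with mock arrays. Over all 6 clones, 12 of 32 collagen probes tested, on 10 of 25 genes, passed the threshold for 5-aza-dC against mock, 8 of them higher and 4 lower. This was 37.5% of the collagen probes, beside 13.2% of the 27294 probes tested, and probes called higher made up 7.23% of them. The higher probes stood for COL8A2 (2 probes), COL9A2, COL9A3, COL1A1, COL6A1, COL21A1 and COL16A1, and the lower ones for COL24A1, COL27A1, COL28A1 and COL16A1. Of the 8 higher probes, 3 (COL8A2 A_33_P3297930, COL21A1 and COL16A1 A_23_P160318) were detected on no mock array and so entered the test only through the arrays where they were high. COL8A2 A_24_P365975 and COL9A2 were each detected on 1 mock and 6 treated arrays. They too reached the 3 detected arrays that the test asked for only with treated arrays. The lower probes of COL16A1 and COL28A1 were each detected on 2 treated arrays and reached that number only with mock arrays. With only the probes detected on every array, 3 of 16 collagen probes were called, 1 higher and 2 lower. The median difference was 0.09 over the 32 collagen probes and -0.06 over all probes tested. With the array median as the scale in place of the 75th percentile, 16 collagen probes passed, 8 higher and 8 lower. With the slide in the fit 9 passed, 8 higher and 1 lower, and with clone and slide together 5 passed, all higher. With normexp background correction and quantile normalization 10 passed, and the differences were smaller, at 0.42 and 1.40 for the COL8A2 probes A_33_P3297930 and A_24_P365975, 0.54 for COL9A2, 2.33 for COL9A3, 1.17 for COL1A1, 0.60 for COL6A1 and 0.50 for COL21A1. Each array measured the RNA of a whole culture, so fewer cells with a transcript and less RNA per cell cannot be told apart.

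COL8A2, a short-chain collagen of the membrane below the corneal endothelium, had the smallest adjusted p of the collagens. Its probe A_33_P3297930 (chr1:36563302-36563361, minus strand; all probe positions are hg19, as the array files give them, and exons and UTRs were not annotated here) read -7.04, -6.97 and -6.63 in mock control clones 1 to 3 and -6.09, -6.37 and -5.88 in mock knockdown clones 1 to 3. After 5-aza-dC it read -3.75, -3.76 and -3.58 in control clones and -4.02, -4.94 and -4.02 in knockdown clones. No mock array was well above background and 5 of the 6 treated arrays were, and the treated arrays lay above all mock arrays. The difference was 2.48 ± 0.19 (SE) with adjusted p = 1.23e-05, and it was 2.45 within slide 1 and 2.62 within slide 2. Since the mock arrays gave only a background signal, a bound was set in place of a fold. On the main scale, without normexp, treated arrays were at least 1.53-fold higher. The bound sets the mean of the brighter group over a floor for the dimmer group. For each dimmer array this floor is the higher of its own signal and its lowest signal well above background. Bounds of this kind hold only on the main scale. With normexp and quantile normalization the difference of this probe was 0.42, smaller than its bound. The other probe, A_24_P365975 (chr1:36560863-36560922), read -4.12, -7.09 and -6.45 in mock control clones, -5.60, -6.51 and -5.09 in mock knockdown clones, -1.68, -2.09 and -1.52 in treated control clones and -1.30, -2.34 and -1.51 in treated knockdown clones. Mock control clone 1 was its only mock array well above background, and again the groups did not overlap. It rose by 4.07 ± 0.47 with adjusted p = 0.000318. In the 3 clones with both arrays on 1 slide it rose by 3.58 to 4.93.

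Promoters rich in CG, the dinucleotide at which DNA methyltransferases act, are the usual setting in which methylation and transcription are studied. The RefSeq promoter table (GRCh38.p14) held 43 start sites for 31 of the 43 genes, and was searched for CG, which reads alike on both strands, in the 250 bases before each start. The count was 11 at the median of all 35116 start sites, with quartiles of 3 and 23, and 12 at the median of the 43 collagen start sites, which ran from 1 at COL17A1, COL28A1 and a start site of COL10A1 to 40 at COL4A2. COL8A2 had 35, and 5.8% of all start sites had as many or more. COL9A2 had 22, and 28% of all start sites had as many or more. Both start sites of COL24A1, a gene whose signal fell, had 16, and 41% of all start sites had as many or more. The 3 start sites of COL21A1 had 2, 12 and 4, and the single start site of COL28A1 had 1. COL16A1, with probes called in either direction, had 16 at its single start site, and COL27A1, with a probe called lower, had 13. The upstream bases of COL8A2, COL9A2 and COL24A1, shown for these called genes of either direction, are chr1:36125223-36125472, chr1:40317287-40317536 and chr1:86156773-86157022, all on the minus strand, printed 5′ to 3′ with CG in capitals.
COL8A2: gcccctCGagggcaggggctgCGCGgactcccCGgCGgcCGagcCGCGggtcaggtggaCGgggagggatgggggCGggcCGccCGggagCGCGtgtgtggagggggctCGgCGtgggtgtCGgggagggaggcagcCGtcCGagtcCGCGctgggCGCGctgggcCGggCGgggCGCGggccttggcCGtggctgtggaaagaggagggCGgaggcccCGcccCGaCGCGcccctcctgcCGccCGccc
COL9A2: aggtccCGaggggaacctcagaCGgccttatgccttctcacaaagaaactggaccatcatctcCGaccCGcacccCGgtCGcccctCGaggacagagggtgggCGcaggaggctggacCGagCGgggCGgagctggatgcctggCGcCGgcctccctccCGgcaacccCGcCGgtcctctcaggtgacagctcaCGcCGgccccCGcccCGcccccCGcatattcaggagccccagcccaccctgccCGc
COL24A1: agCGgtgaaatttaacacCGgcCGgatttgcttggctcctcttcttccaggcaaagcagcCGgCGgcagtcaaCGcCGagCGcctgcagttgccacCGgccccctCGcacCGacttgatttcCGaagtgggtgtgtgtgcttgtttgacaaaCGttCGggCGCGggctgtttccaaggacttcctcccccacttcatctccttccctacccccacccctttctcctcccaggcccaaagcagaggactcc
COL1A1, COL6A1 and COL9A3 have no entry in this table. The CG counts are a description of these windows, and methylation was not analysed here.

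The collagen IX genes encode a FACIT collagen of 3 different chains that sits on cartilage fibrils. COL9A3 (chr20:61472271-61472330) read -2.91, -4.48 and -5.46 in mock control clones, -1.84, -5.37 and -2.58 in mock knockdown clones, 0.54, -0.93 and -0.69 in treated control clones and 1.06, -0.22 and 0.03 in treated knockdown clones. All treated arrays lay above all mock arrays, with 4 of 6 mock arrays and 6 of 6 treated arrays well above background. COL9A3 rose by 3.74 ± 0.64 with adjusted p = 0.00414, and by 2.61 to 4.77 in the clones with both arrays on 1 slide. COL9A2 (A_23_P45786, chr1:40766380-40766439) read -4.17, -5.37 and -5.44 in mock control clones, -5.10, -5.22 and -4.92 in mock knockdown clones, -2.66, -2.54 and -3.14 in treated control clones and -3.66, -3.94 and -3.24 in treated knockdown clones. Treated arrays lay above mock arrays throughout, and treated control clones lay above treated knockdown clones. It rose by 1.84 ± 0.24 with adjusted p = 0.000715, with 1 mock array and 6 treated arrays well above background. Its second probe, at another position (chr1:40783351-40783410), was not detected on any array. COL9A1 (A_24_P311856) did not pass, at -4.19, -3.19 and -2.64 in mock control clones, -3.52, -1.24 and -3.77 in mock knockdown clones, -4.93, -5.14 and -4.09 in treated control clones and -3.27, -3.19 and -2.94 in treated knockdown clones. It was detected in every group but the treated control clones.

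COL1A1 (chr17:48261509-48261568), detected everywhere, read -2.72, -3.65 and -2.96 in mock control clones, -3.33, -3.96 and -1.66 in mock knockdown clones, -0.95, -1.48 and -1.20 in treated control clones and -0.89, -1.31 and -0.60 in treated knockdown clones. The highest mock array, knockdown clone 3, lay just under the lowest treated array. COL1A1 rose by 1.98 ± 0.36, a 3.94-fold higher level, with adjusted p = 0.00565. The difference was 2.32 within slide 1 and 1.73 within slide 2, and each of the 6 clones rose, by 1.07 to 2.65. Its partner COL1A2 lay between -7.10 and -6.25 on the 12 arrays and was not tested.

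COL6A1 (chr21:47424836-47424895), a chain of the type VI microfibril, read -3.55, -4.37 and -6.20 in mock control clones, -3.43, -4.14 and -3.45 in mock knockdown clones, -2.44, -2.38 and -3.04 in treated control clones and -2.04, -1.83 and -2.29 in treated knockdown clones. All treated arrays exceeded all mock arrays. It rose by 1.85 ± 0.39 with adjusted p = 0.0122. Leaving out control clone 2 or knockdown clone 1 or 2 ended the call, with adjusted p up to 0.0727 over all settings tried. COL6A2, its neighbour on chromosome 21, was not detected.

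COL21A1 (chr6:55921642-55921701), a FACIT collagen, read -6.86, -6.84 and -6.42 in mock control clones, -6.69, -6.59 and -5.43 in mock knockdown clones, -3.30, -5.92 and -4.23 in treated control clones and -3.62, -3.97 and -3.34 in treated knockdown clones. No mock array was well above background. Treated control clone 1 and the 3 treated knockdown clones were, and treated control clone 2 lay within the mock range. It rose by 2.41 ± 0.41 with adjusted p = 0.0038, and treated arrays were at least 1.47-fold higher on the main scale (0.56 in log2). With normexp and quantile normalization the difference was 0.50, smaller than this bound. With clone and slide in the fit adjusted p was 0.0728.

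COL24A1 (chr1:86195355-86195414), a minor fibrillar collagen, went the other way. It read -0.03, 0.47 and 0.05 in mock control clones, -0.57, -0.32 and -0.41 in mock knockdown clones, -0.68, -1.04 and -1.07 in treated control clones and -0.92, -1.08 and -1.39 in treated knockdown clones. It was detected on all 12 arrays and the treated arrays lay below all mock arrays. It fell by 0.89 ± 0.15 on the log2 scale, with adjusted p = 0.00305, and by 0.98 within slide 1 and 1.01 within slide 2. In the fit with clone and slide adjusted p was 0.09. Of the 3 probes of COL27A1, another fibrillar collagen, A_24_P363896 (chr9:117072895-117072954) was called lower. It read -0.66, -0.63 and -0.69 in mock control clones, -0.50, -0.43 and -0.43 in mock knockdown clones, -1.31, -1.25 and -1.25 in treated control clones and -0.66, -0.81 and -0.44 in treated knockdown clones. The treated control clones stood apart and the treated knockdown clones overlapped the mock arrays. Its difference was -0.39 ± 0.11 with adjusted p = 0.0349, and the call was lost whichever clone was left out. Within slide 1, where the treated arrays were of knockdown clones only, the difference was -0.01. In the clones with both arrays on 1 slide, this probe changed by -0.56 in control clone 3. It changed by -0.15 and -0.01 in knockdown clones 1 and 3. The probe A_23_P158096 of this gene, with its highest mean, read 2.06, 2.16 and 1.88 in mock control clones, 2.47, 2.58 and 2.85 in mock knockdown clones, 1.57, 1.89 and 1.97 in treated control clones and 2.65, 2.29 and 2.82 in treated knockdown clones, and did not pass.

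**Figure D2:**
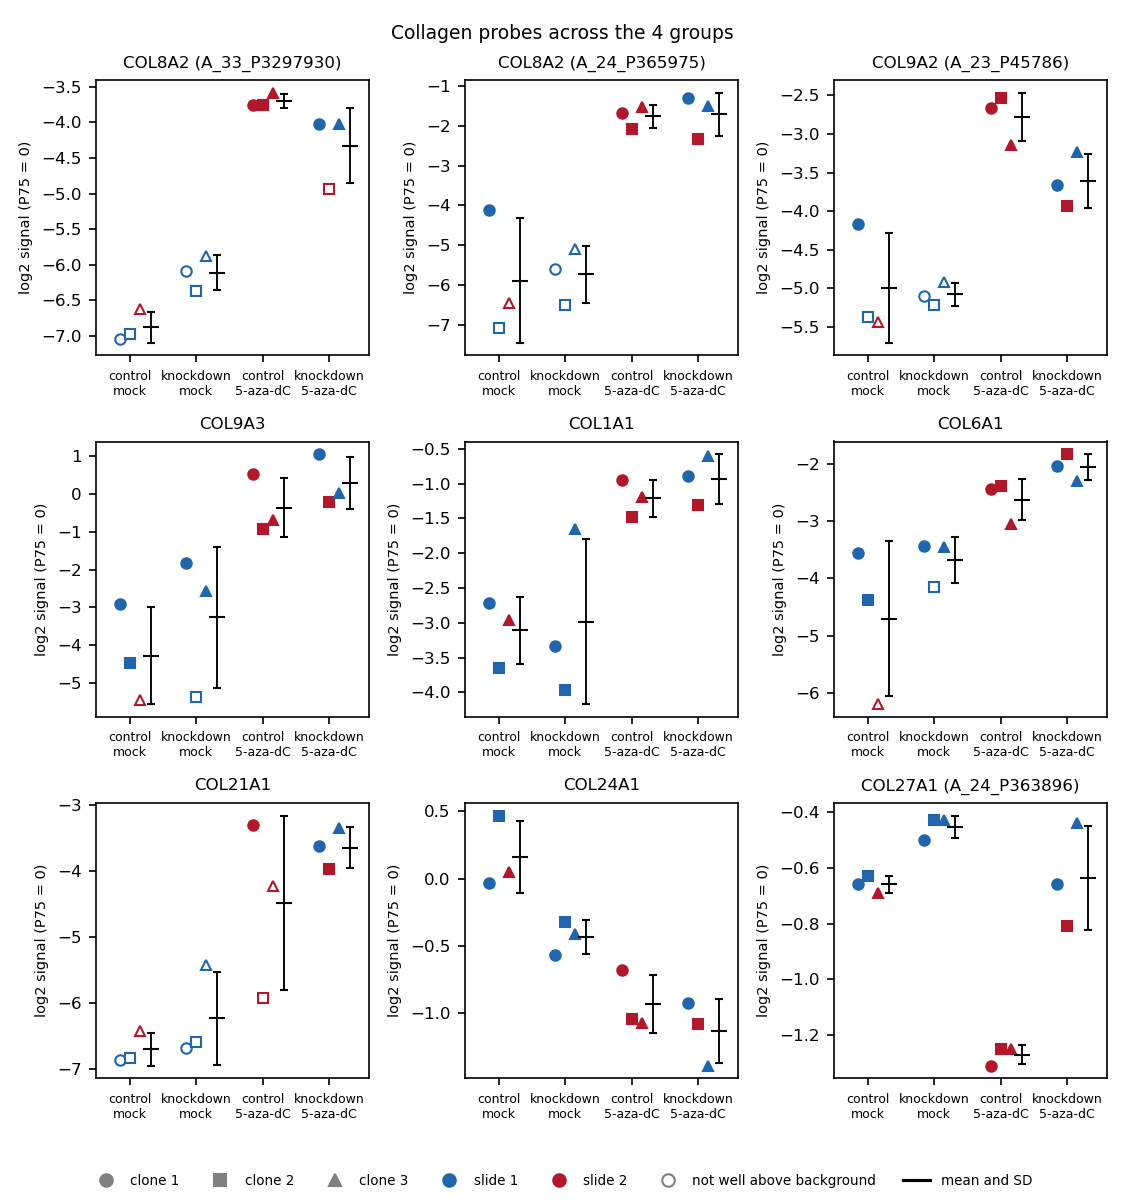
Log2 signal (y axis, relative to the 75th percentile of the array) of 9 collagen probes in the 4 groups (x axis), 1 point per array with the clone as its shape and the slide as its colour, open where the probe was not well above background, and bars for the mean and SD of 3 clones. Treated arrays lie above mock arrays for both COL8A2 probes, COL9A2, COL9A3, COL1A1 and COL6A1 and below them for COL24A1.

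Of the 12 called probes, 11 moved in the called direction in all 3 clones with both arrays on 1 slide and 10 did so in all 6 clones. Among all probes called in this comparison the same held for 92.4% and 90.1%. The exceptions were COL28A1, which read 0.39 higher after treatment in knockdown clone 1, and the COL16A1 probe called higher, which read 0.10 lower in control clone 2.

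**Figure D3:**
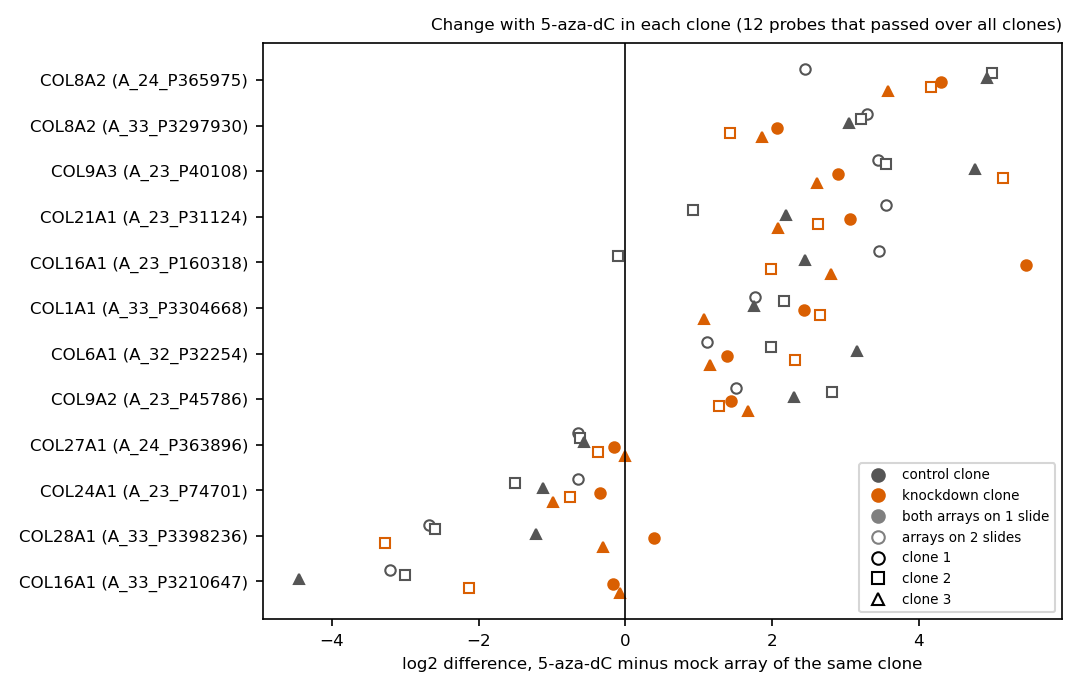
Log2 difference between the treated and the mock array of each clone (x axis) for the 12 called collagen probes (rows), with control clones in grey, knockdown clones in orange, and filled symbols for clones with both arrays on 1 slide. All symbols of the first 4 rows lie to the right of 0, while the lowest 2 rows, COL28A1 and COL16A1 (A_33_P3210647), have filled symbols close to 0 as well as at -1.22 and -4.45.

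COL16A1, a FACIT collagen, was called in both directions by its 2 probes, which lie far apart in the gene. Probe A_33_P3210647 (chr1:32148536-32148595) read -3.49, -3.58 and -1.66 in mock control clones, -4.00, -4.06 and -3.62 in mock knockdown clones, -6.70, -6.58 and -6.12 in treated control clones and -4.17, -6.19 and -3.70 in treated knockdown clones. It was well above background on all 6 mock arrays and, after treatment, only in knockdown clones 1 and 3, the treated arrays of slide 1. Its difference was -2.17 ± 0.45 with adjusted p = 0.0123, but -0.18 within slide 1 and -4.73 within slide 2, and with the slide in the fit adjusted p was 0.0635. In the clones with both arrays on 1 slide, it changed by -4.45 in control clone 3 and by -0.17 and -0.07 in knockdown clones 1 and 3. Probe A_23_P160318 (chr1:32118175-32118234) read -6.21, -6.63 and -6.54 in mock control clones, -6.73, -6.58 and -5.29 in mock knockdown clones, -2.75, -6.73 and -4.09 in treated control clones and -1.26, -4.59 and -2.48 in treated knockdown clones. It was detected on 3 arrays, all treated, and treated arrays were at least 1.96-fold higher on the main scale (0.97 in log2). The difference of this probe passed, at 2.68 ± 0.71 with adjusted p = 0.0329. This call was lost with clone and slide in the fit (adjusted p = 0.0897), with normexp and quantile normalization (0.75, adjusted p = 0.0664), without a filter on dim probes (adjusted p = 0.0503) and without control clone 3 (adjusted p = 0.0719). The level of COL16A1 after 5-aza-dC thus had no single direction in these files.

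The probe of COL16A1 that was lower belongs to a kind that is rare on the array. Glycine codons begin with GG, so the helix of a collagen puts GG at every ninth base of its messenger RNA. A probe of 60 bases was counted where at least 5 GG lay 9 bases apart from each other, on the strand of the messenger RNA. This held for 18 of 50599 probes, or 0.0356%, and for 2 of the 65 collagen probes, which are shown with these GG in capitals.
COL16A1 A_33_P3210647: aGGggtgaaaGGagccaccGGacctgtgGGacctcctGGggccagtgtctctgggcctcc
COL9A1 A_24_P311856: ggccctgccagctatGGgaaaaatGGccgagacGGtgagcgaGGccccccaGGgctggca
The COL9A1 probe lies at chr6:70926717-70926776. Both probes were detected on all 6 mock arrays, on none of the treated control arrays, and on treated knockdown clones 1 and 3. The probes COL28A1 A_33_P3398236 and COL14A1 A_32_P80850 did not reach 5 such GG. They too were detected on none of the treated control arrays and on treated knockdown clones 1 and 3. The COL9A1 probe was also detected on treated knockdown clone 2, and its difference over all clones did not pass. Whether related helix sequences bind to such probes was not tested.

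COL28A1 (A_33_P3398236, chr7:7471139-7471198), a collagen with von Willebrand factor domains, read -4.32, -4.23 and -5.23 in mock control clones, -4.76, -3.20 and -4.33 in mock knockdown clones, -7.00, -6.83 and -6.45 in treated control clones and -4.36, -6.48 and -4.63 in treated knockdown clones. Its arrays of slide 1 all lay above those of slide 2. The difference of -1.61 ± 0.40 passed with adjusted p = 0.0261, and adjusted p was 0.139 with the slide in the fit and 0.0683 with the clone in the fit. Treatment and slide cannot be told apart in control clones 1 and 2 and knockdown clone 2, whose arrays lay on different slides.

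Of the 32 collagen probes tested, 6 (18.8%) did not overlap between the slides, beside 26.3% of all probes. These were probes of COL11A2, COL14A1, COL20A1, COL23A1, COL27A1 and COL28A1. The probe of COL11A2 with its highest mean, A_33_P3216448, read -2.50 to -2.00 on slide 1 and 0.22 to 0.97 on slide 2. In the clones with both arrays on 1 slide it differed by -0.37 to 0.06 between treated and mock arrays, and in the others by 2.66 to 2.83. The other 2 probes of COL11A2 overlapped between the slides. COL14A1 (A_32_P80850) read -4.43 to -3.75 on slide 1 and -6.61 to -5.68 on slide 2. COL20A1 (A_33_P3395952) read -4.86 to -4.07 on slide 1 and -6.93 to -6.40 on slide 2, and was detected on 3 arrays, all on slide 1. None of these 3 probes passed over all clones, and in the mock control and the treated knockdown clones, which lay on both slides, their arrays split by slide.

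**Figure D4:**
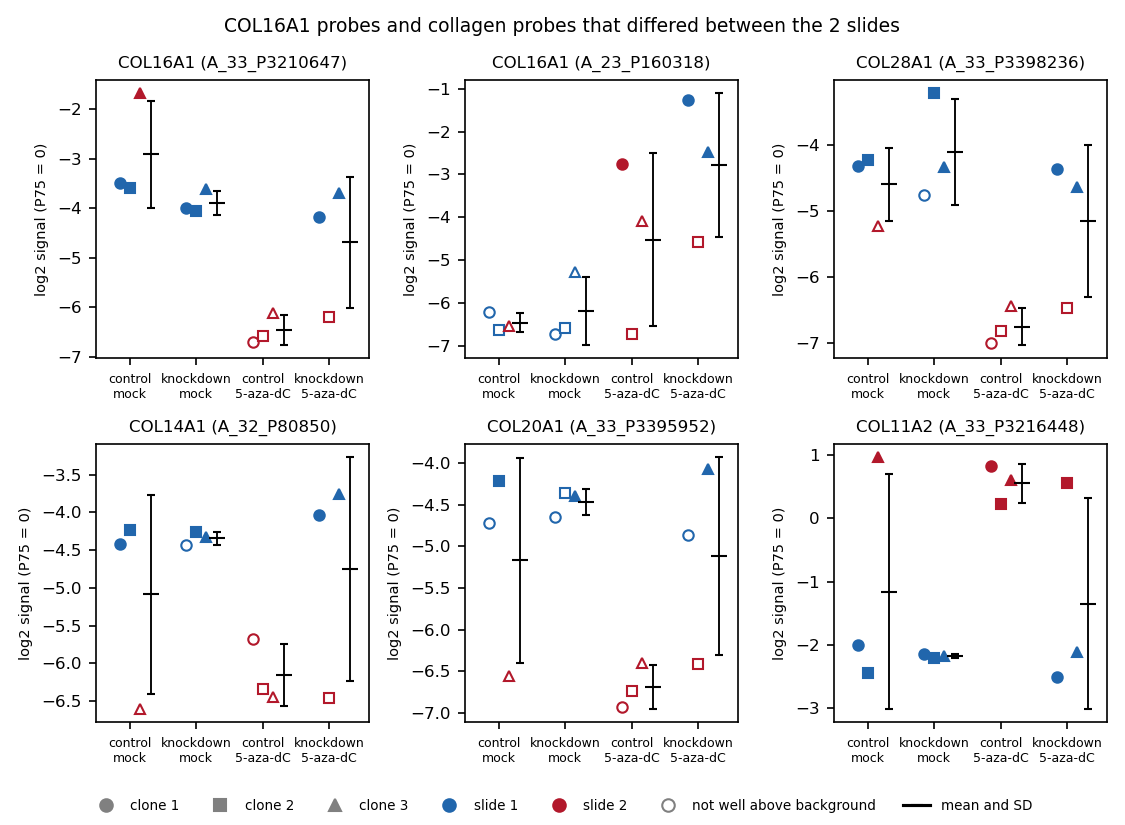
Log2 signal (y axis, relative to the 75th percentile of the array) of the 2 COL16A1 probes and of 4 collagen probes without overlap between the slides, in the 4 groups (x axis), with the clone as shape, the slide as colour (blue for slide 1, red for slide 2), open points where the probe was not well above background, and bars for mean and SD. COL28A1, COL14A1 and COL20A1 are higher in blue than in red points, and COL11A2 lower.

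The 4 groups also allowed 5-aza-dC to be compared with mock within each clone type, 3 arrays against 3. These comparisons use some of the arrays of the comparison over all clones. In control clones 7 of 27 collagen probes passed, 5 higher and 2 lower, beside 5.32% of the 24648 probes tested. Both COL8A2 probes, COL9A2, COL9A3 and COL16A1 A_33_P3210647 reached the 3 detected arrays only through the group where they were high. COL8A2 A_33_P3297930 was detected on 0 mock control arrays, COL8A2 A_24_P365975 and COL9A2 on 1 and COL9A3 on 2. COL16A1 A_33_P3210647 was detected on 0 treated control arrays. With only the probes detected on every array, 1 of 18 was called, higher. COL8A2 rose by 3.18 ± 0.18 (A_33_P3297930, adjusted p = 0.000768, at least 2.02-fold on the main scale) and 4.13 ± 0.74 (A_24_P365975, adjusted p = 0.033). COL9A3 rose by 3.92 ± 0.71 (adjusted p = 0.0333), COL9A2 by 2.21 ± 0.39 (adjusted p = 0.0302) and COL1A1 by 1.90 ± 0.29 (adjusted p = 0.0191). COL24A1 fell by 1.09 ± 0.21 on the log2 scale (adjusted p = 0.0399, and 0.0701 with the clone as a block). The COL16A1 probe A_33_P3210647 fell by 3.55 ± 0.53 (adjusted p = 0.018) and was at least 2.94-fold lower on the main scale (-1.55 in log2). With normexp and quantile normalization its difference was -0.89 and the COL8A2 probe A_33_P3297930 differed by 0.57. Neither bound held there. With the slide in the fit, 3 collagen probes passed, namely the COL8A2 probe A_33_P3297930, the COL16A1 probe and COL6A1. Without any 1 of the treated control arrays 0 were called, as 6 of the 7 lost the call and the COL8A2 probe A_33_P3297930 was no longer detected on the 3 arrays that the test asked for. Without mock control clone 2, 2 were called, and with clone and slide in the fit 0 of 27 were. With the clone as a block 9 passed, among them COL13A1 at -1.99 (adjusted p = 0.0394), COL4A2 at -1.02 (adjusted p = 0.0478) and COL10A1 at 1.11 (adjusted p = 0.0347), which the unblocked fit did not call.

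In knockdown clones 4 of 28 collagen probes passed, all higher, beside 2.06% of the 25391 probes tested. Of the 4, COL8A2 A_24_P365975, COL21A1 and COL9A2 were detected on 0 mock and 3 treated knockdown arrays and so could be tested only because they were high after treatment. COL6A1 was detected on 2 mock and 3 treated knockdown arrays, so it too reached the 3 detected arrays only with treated arrays. With only the probes detected on every array 0 were called. COL8A2 rose by 4.01 ± 0.45 (A_24_P365975, adjusted p = 0.00604). It was at least 7.03-fold higher on the main scale, where a bound was set since no mock knockdown array was well above background. Over the alternatives tried its log2 difference went down to 1.40, smaller than this bound. COL21A1 rose by 2.59 ± 0.39 (adjusted p = 0.0239, at least 1.85-fold on the main scale). COL6A1 rose by 1.62 ± 0.27 (adjusted p = 0.0395, and 0.0949 with the clone as a block). COL9A2 rose by 1.47 ± 0.25 (adjusted p = 0.0384, at least 1.89-fold on the main scale). Over the alternatives tried the log2 differences went down to 0.57 for COL21A1 and 0.37 for COL9A2, smaller than their bounds. COL9A3 differed by 3.55 ± 0.92 (adjusted p = 0.208) and COL1A1 by 2.05 ± 0.59 (adjusted p = 0.285), and mock knockdown clone 2 was low in the first and mock knockdown clone 3 high in the second. With the clone and slide in the fit COL9A3 passed as well (adjusted p = 0.00748). Without any 1 of the treated knockdown arrays 0 collagen probes were called, as COL6A1 lost the call and the other 3 were no longer detected on 3 arrays. Without mock knockdown clone 1 or 2, 1 was called.

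Whether the response differed between clone types was tested by the interaction on all 12 arrays. None of 32 collagen probes passed, beside 0.033% of the 27294 probes tested, and 2 had an unadjusted p under 0.05, beside 694 of all 27294. These were COL8A2 A_33_P3297930, with a response lower by 1.40 ± 0.37 in knockdown clones (adjusted p = 1), and COL16A1 A_33_P3210647, with a response higher by 2.76 ± 0.91 in knockdown clones (adjusted p = 1). COL8A2 rose by 3.05 to 3.29 in each control clone and by 1.43 to 2.07 in each knockdown clone at that probe, while its other probe rose by 2.45 to 5.00 and by 3.58 to 4.30. No mock array of the first probe and 1 of the second was well above background, so these are differences from background readings.

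The effect of TET1 knockdown itself was compared before and after 5-aza-dC. Between mock knockdown and mock control clones none of 25 collagen probes passed in limma, beside 0.137% of the 24755 probes tested, and 3 had an unadjusted p under 0.05, beside 2735 of all 24755, as also by the methods' t-test, by which none passed either. These 3 were COL24A1 at -0.60 ± 0.21 (adjusted p = 0.413), COL27A1 (A_23_P158096) at 0.60 ± 0.19 (adjusted p = 0.386) and COL4A1 at -0.89 ± 0.34 (adjusted p = 0.425). In each of them the 3 knockdown clones lay on 1 side of the 3 control clones, but these probes were picked by their p. The same held at COL27A1 A_24_P363896 and COL16A1 A_33_P3210647, and the share of all probes without overlap was not counted. COL4A1 read -0.26, 0.85 and 0.85 in mock control clones, -0.53, -0.30 and -0.40 in mock knockdown clones, -0.57, 0.10 and 0.35 in treated control clones and -1.16, -0.70 and -0.70 in treated knockdown clones. Its partner COL4A2 read 2.93, 4.19 and 4.33, then 2.21, 3.35 and 2.67, then 1.75, 3.38 and 3.25, then 1.69, 2.43 and 2.32 in the same order. Knockdown clones lay below control clones at COL4A1 within each treatment and overlapped them at COL4A2. Over all clones 5-aza-dC differed from mock by -0.81 ± 0.36 at COL4A2 (adjusted p = 0.151), and with the clone as a block both genes were called lower, COL4A2 with adjusted p = 0.00983 and COL4A1 with adjusted p = 0.0352. Each of the 6 clones read lower after treatment at both genes.

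Between treated knockdown and treated control clones none of 28 collagen probes passed in limma, beside 0.068% of the 25002 probes tested. Of the 28 probes 7 had an unadjusted p under 0.05, beside 4815 of all 25002, and by the methods' t-test 4 did and none passed. Without treated knockdown clone 2, the only treated knockdown array on slide 2, 6 collagen probes passed, on COL27A1, COL12A1 and COL11A2. All treated knockdown arrays then lay on slide 1 and all treated control arrays on slide 2, so clone type and slide cannot be told apart there, and COL11A2 A_33_P3216448 and COL27A1 A_24_P363896 did not overlap between the slides. COL12A1, a FACIT collagen on the surface of type I fibrils, read -0.34, 0.11 and 1.46 in mock control clones, -2.34, 0.36 and -1.79 in mock knockdown clones, -0.20, 1.10 and 1.67 in treated control clones and -2.72, 0.01 and -2.00 in treated knockdown clones (A_23_P214168). Knockdown clones 1 and 3 were low under both treatments, and clone 2 lay within the control range. Its difference between treated clones was -2.42 ± 0.79 (adjusted p = 0.214), and the probe A_33_P3231953 showed the same low clones, at -6.75 and -5.49 after mock treatment. COL9A1 differed by 1.59 ± 0.31 (adjusted p = 0.139) with no overlap. On the main scale it was at least 2.47-fold higher in treated knockdown clones, a bound set since no treated control array was well above background.

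Single clones stood apart at other collagens too. COL13A1, a transmembrane collagen of cell adhesions, read 0.69, 1.76 and 2.22 in mock control clones, -5.20, 1.98 and -1.01 in mock knockdown clones, -1.04, 0.30 and -0.57 in treated control clones and -4.51, 1.93 and -1.68 in treated knockdown clones. Knockdown clone 2 lay within the mock control range and clones 1 and 3 below it, with an SD of 3.61 after mock treatment against 0.78 in controls, and the knockdown clones kept this order after 5-aza-dC. The control clones each read lower after 5-aza-dC, by 1.46 to 2.79. COL5A1 (A_33_P3629678), a chain that helps to start type I fibrils, was lowest in knockdown clone 1, at -3.42 and -3.25, while all its other arrays lay between -1.92 and 0.85. COL18A1 was highest in mock knockdown clone 1, at -1.05, and treated control clone 3, at -1.28. COL3A1, which forms fibrils in soft tissues, was highest in mock knockdown clone 2, at -0.81, and lowest in treated control clone 2, at -6.76, where it was not well above background.

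**Figure D5:**
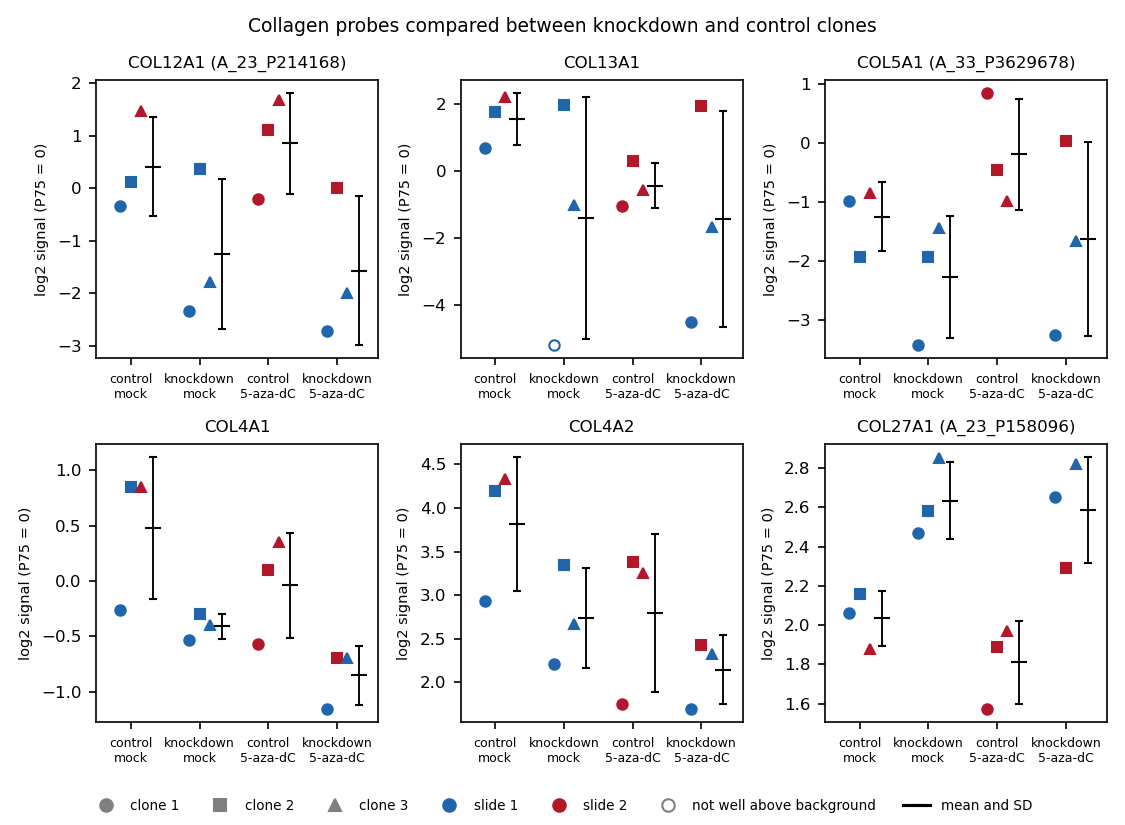
Log2 signal (y axis, relative to the 75th percentile of the array) of 6 collagen probes in the 4 groups (x axis), with the clone as shape, the slide as colour, open points where the probe was not well above background, and bars for mean and SD. Knockdown clone 1 is lowest and clone 2 highest of the knockdown clones at COL12A1 and COL13A1, and the knockdown clones lie above the controls at COL27A1.

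COL23A1, COL7A1, COL10A1, COL18A1 and COL5A2 passed in no comparison in the fits without blocks. COL23A1 read 2.89, 2.49 and 2.92 in mock control clones, 2.42, 2.86 and 2.56 in mock knockdown clones, 3.18, 2.96 and 3.37 in treated control clones and 2.71, 3.47 and 2.77 in treated knockdown clones, and differed by 0.39 ± 0.17 with 5-aza-dC (adjusted p = 0.15). COL7A1 read -1.85, -2.14 and -2.39 in mock control clones, -2.81, -1.01 and -2.29 in mock knockdown clones, -3.14, -2.74 and -2.40 in treated control clones and -2.52, -1.14 and -2.36 in treated knockdown clones. Knockdown clone 2 was the highest under both treatments. COL10A1, the collagen of hypertrophic cartilage, read -3.12, -3.64 and -2.16 in mock control clones, -2.85, -2.35 and -3.22 in mock knockdown clones, -1.89, -2.58 and -1.10 in treated control clones and -2.90, -0.41 and -3.16 in treated knockdown clones. Its 2 knockdown clones with both arrays on slide 1 differed by -0.04 and 0.06 and the other clones by 1.06 to 1.94. COL18A1 read -5.01, -4.46 and -4.12 in mock control clones, -1.05, -4.61 and -3.91 in mock knockdown clones, -3.15, -4.01 and -1.28 in treated control clones and -2.85, -3.03 and -4.19 in treated knockdown clones, and passed in no comparison. COL5A2 lay between -2.31 and -0.25 on the 12 arrays and passed in no comparison either. COL2A1 was detected in treated control clones 1 and 3, at -3.65 and -3.83, COL8A1 in mock control clone 2 and treated control clone 3, at -4.29 and -3.74, and COL6A3 in mock control clone 2 by 1 probe and treated control clone 1 by the other. These genes were below the detection filter and were not tested. Without a filter on dim probes COL2A1 was called higher with 5-aza-dC in control clones and over all clones.

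The enzymes that make collagens were measured beside them, on 1 probe per gene. All 16 genes of modification and folding found on the array were detected, 14 of them on all 12 arrays. Of the 14 tested over all clones 2 rose with 5-aza-dC and 1 fell, and the counts of this and the next lists stand beside 13.2% of all probes called and 7.23% called higher. P4HA2, a subunit of the prolyl 4-hydroxylase that stabilises the helix, rose by 1.54 ± 0.31 (adjusted p = 0.00998), PLOD2, a lysyl hydroxylase, rose by 0.77 ± 0.18 (adjusted p = 0.0223), and CRTAP, of the prolyl 3-hydroxylase complex, fell by 0.87 ± 0.17 on the log2 scale (adjusted p = 0.00818). The median was 0.36, beside -0.06 over all probes. Of 8 genes of processing and cross-linking tested 2 rose, LOX, which cross-links collagen, by 1.51 ± 0.28 (adjusted p = 0.00684, on 0 of 6 mock and 3 of 6 treated arrays well above background, so against background readings) and PCOLCE, which enhances the cleavage of procollagen, by 0.96 ± 0.28 (adjusted p = 0.0482), with a median of 0.92. Of 8 receptors tested MRC2, which takes up collagen fragments, rose by 3.84 ± 0.82 (adjusted p = 0.0134), with a median of -0.10. Of 3 proteases tested MMP2 rose by 2.18 ± 0.50 (adjusted p = 0.0182), with a median of 1.55. MMP2 was well above background on 0 mock control, 1 mock knockdown, 3 treated control and 2 treated knockdown arrays. Over all clones and in control clones it thus reached the 3 detected arrays only with treated arrays, mostly against background readings. None of 9 genes of transforming growth factor beta signalling and transcription passed. With the slide in the fit CRTAP and LOX were called and P4HA2, PLOD2, PCOLCE, MRC2 and MMP2 were not, with adjusted p between 0.0514 and 0.192, while GLT25D2 (adjusted p = 0.046) and MMP9 (adjusted p = 0.0135) were called in addition. In control clones P4HA2 and MMP2 rose (adjusted p = 0.0374 and 0.0453), in knockdown clones none passed, and none passed between knockdown and control clones or for the interaction.

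Markers of cell types were measured on the same arrays. CDX2 and KRT18, which mark intestinal epithelium, were detected on all 12 arrays. CDH1 was not detected on any array, and EPCAM rose over all clones by 3.75 (adjusted p = 0.00403). Of 7 fibroblast markers, FBLN1 was detected on all arrays and 1 to 5 markers per array, and their summed signal was 16.2 to 20.3 in mock control clones, at most 12.8 in mock knockdown clones, 12.8 to 15 in treated control clones and 10 to 15.5 in treated knockdown clones. FBLN1, at 3.06 to 4.23 on the log2 scale, made up most of this sum. Over all clones THY1 (2.28 ± 0.42, adjusted p = 0.00608) and FAP (1.66 ± 0.46, adjusted p = 0.0392) rose with 5-aza-dC, and the other 3 tested did not pass. THY1 was well above background on 0 of 6 mock arrays and FAP on 1, so these are differences from background readings. With the slide in the fit THY1 (adjusted p = 0.0397) and LUM (adjusted p = 0.0329) were called and FAP (adjusted p = 0.186) was not. Besides FBLN1, LUM was detected on 11 of 12 arrays, ACTA2 on 6, FAP on 5 and THY1 on 3. ACTA2 was highest in mock knockdown clone 1, at 1.18. DCN and PDGFRA were each detected on 1 array, a treated knockdown array. The part of these markers in the collagen results was not tested. Of the neuroendocrine markers CHGA and ENO2 rose over all clones (adjusted p = 0.00228 and 0.00652). CHGA was well above background only on 1 mock and 3 treated control arrays, so it rose mostly from background readings. Of 3 endothelial markers CDH5 and VWF fell (adjusted p = 0.00589 and 0.037, and 0.0168 and 0.127 with the slide in the fit) and PECAM1 was not detected. At CDH5 and VWF all slide 1 arrays read above those of slide 2, beside 26.3% of all probes without overlap. After 5-aza-dC VWF was detected on 0 control and 2 knockdown arrays. In the clones with both arrays on 1 slide VWF read -5.29 and then -6.46 (control clone 3), -3.58 and -4.06 (knockdown clone 1) and -3.83 and -3.82 (knockdown clone 3).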

How the data were processed

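RNA of 12 cultures was hybridised to 1-colour Agilent arrays. The deposited values are spot intensities from Agilent Feature Extraction 10.7 (10.7.3.1 per the file headers), which the authors' scanner software had background-subtracted (gProcessedSignal), with flags for spots well above background. The series' value table held the same intensities, within 0.497%, and was not used otherwise. The study's own normalization and t-tests were run in other software, whose normalization is not given in the sources used here.

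Here log2 intensity minus the 75th percentile of each array over its 58717 spots that were no controls was averaged over the spots of a probe, without outlier spots. No spot was saturated. A probe was detected on an array where at least 50% of its spots were well above background, and tested where it was detected on at least 3 arrays of a comparison. Differences were fitted with limma 3.58.1 (lmFit, eBayes) in R 4.3.3 (with the data.table package, version 1.17.8) on the arrays of each comparison, and p-values were adjusted by Benjamini-Hochberg across every probe in the test and called under 0.05. The code was tested on simulated data.

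Mock and treated arrays with the same number came from the same clone, and their deviations from the group means correlated (0.213 to 0.316 in control and 0.431 to 0.525 in knockdown clones), so fits with the clone as a block were run beside the unblocked ones. Slides were tested as a block and within each slide. Other alternatives were quantile normalization, normexp with an offset of 50, the array median as scale, other filters, each array or clone left out, and the methods' t-test. Precision is limited by 3 arrays per group.

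The collagens and the lists of other genes were chosen with earlier results of these data known. A gene was represented by the probe with the highest mean, and other probes were given where they disagreed. All detected collagens were named, and all arrays were given for genes called in any comparison and the brightest of each class, and other collagens described were chosen after their values were seen. Of other lists at most 5 called genes were named. COL26A1 was not on the array under this symbol, and names such as COL18A1-AS1 and COL4A3BP did not match the rule.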

Additional observations from a re-analysis of the deposited data

Results flagged for a closer look

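COL12A1 (A_23_P214168) was the only tested collagen probe at which all control clones moved one way with 5-aza-dC and all knockdown clones the other. The share of all tested probes with this pattern was not counted, so it is not shown to be particular to COL12A1. The treated array read higher than the mock array by 0.15, 0.99 and 0.21 in control clones 1 to 3 and differed by -0.37, -0.35 and -0.21 in knockdown clones 1 to 3. The mean response of control clones exceeded that of knockdown clones by 0.76. The interaction did not pass (-0.76 ± 1.24, adjusted p = 1, limma on all 12 arrays). At the other probe of this gene, A_33_P3231953, the clones of either type moved in both directions. The COL5A1 probe A_33_P3383351, well above background on 1 array and not tested, also moved in opposite directions, by -0.82, -0.74 and -0.48 in control clones and 0.65, 0.61 and 0.20 in knockdown clones.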

How the results depend on the processing

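Over all clones the number of collagen probes called for 5-aza-dC was 12, and it was 3 (1 higher, 2 lower) with only probes detected on every array, 14 with the clone as a replicate block, 5 with replicate block and slide, and 8 to 11 without any 1 clone. In control clones it was 7, and 1 with only probes detected on every array, 3 with the slide as a block, 9 with the replicate block, 0 with replicate block and slide, 2 by the methods' t-test and 0 to 9 without any 1 array. In knockdown clones it was 4, and 1 with quantile normalization, 1 with normexp and quantile normalization, 2 with the array median as scale, 2 without a filter on dim probes, 0 with only probes detected on every array, 2 with the slide as a block, 3 with the replicate block, 0 by the methods' t-test and 0 to 3 without any 1 array. Between knockdown and control clones it was 0 in mock arrays and 0 to 6 without any 1 array in treated arrays, and with the replicate block it was 0 in both and for the interaction. The filter on every array leaves out by its construction the collagens that were not detected before treatment. Of 29 detected collagen genes, 28 to 29 remained detected without any 1 clone, and a looser flag (positive and significant) gave 38. For single collagens, 365 alternatives over 23 results gave 255 on the same side of the threshold, 110 past it no longer, and 0 reversed. Treatment and slide were uneven, and an alternative with outlier spots kept was not run for detection, whose flags used all spots already.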

Other observations

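COL2A1 was detected only in treated control clones 1 and 3, so it fell short of the 3 detected arrays that a test asked for. Without that filter it was called higher after 5-aza-dC over all clones, by 1.84 (adjusted p = 0.00862, limma), with all mock arrays at -6.45 or below and not well above background.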
